A study of Mus musculus with 38 samples.

Results

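Endoplasmic reticulum (ER) stress genes were followed in cells of the Tcf21 lineage that had been sorted from visceral fat of mice. The set holds 32 genes, listed by symbol from the known machinery of the ER stress response, out of 25746 genes in the deposited expression tables. It consists of 11 chaperones, 4 disulphide isomerases, 7 factors of ER-associated degradation, 6 sensors and transcription factors, and 4 target genes of the transcription factors ATF4 and CHOP. All 32 were found in both tables, and all 32 were among the 15659 genes that reached 1 TPM, a read abundance scaled for transcript length and library, in at least 2 of the 29 RNA libraries and were tested. The symbol Ddit3 has a second row listed at 0 in all 29 libraries, which was not used.

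RNA-seq of knockout (KO) cells covered 3 weeks of age (3W, 5 libraries) and 1 week and 12 weeks of a high-fat diet begun at 6 weeks of age (1W HFD and 12W HFD, with 2 libraries each). RNA-seq of wild-type (WT) cells covered postnatal day 12 (P12, 2 libraries), 3W (7 libraries), 1W HFD (4 libraries), 12W HFD (5 libraries) and 6 months of age on regular diet (6M, 2 libraries). Open chromatin was profiled by ATAC-seq, in which a transposase cuts accessible DNA, in 2 libraries of KO 3W cells and in 3 of WT 3W, 2 of WT 1W HFD and 2 of WT 12W HFD cells. Each library was made from 5000 sorted cells. Mice of every group are labelled as given tamoxifen to switch on MerCreMer, a Cre recombinase held inactive until the drug is bound. Adults received 75 mg per kg of body weight each day and neonates 100 µg each day, and the labels do not tell which age of dosing belongs to which group. The labels do not name the promoter that drives MerCreMer or the allele it acts on. The study's title names Tcf21 as the factor examined, and Tcf21 KO is a value of the labels' genotype field. The KO was taken as loss of that gene. Groups follow the sample titles, from which the genotype field of the labels differed in 22 of 38 samples. Of the 29 RNA libraries it differed in 20.

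The ER folds the proteins that a cell secretes or inserts into membranes, and adipose progenitors secrete much collagen and other matrix. When unfolded proteins build up, the membrane sensors IRE1 (gene Ern1), PERK (Eif2ak3) and ATF6 start the unfolded protein response. IRE1 splices the mRNA of Xbp1 into a form that encodes an active transcription factor, ATF6 is itself released as one, and PERK slows translation while favouring that of ATF4. XBP1 and ATF6 raise chaperones and degradation factors, whereas ATF4 and CHOP (Ddit3) raise genes of amino acid supply and of cell death. Gene-level TPM holds neither the splicing of Xbp1 nor protein levels.

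Read depth is unknown, because TPM is scaled within a library. The columns summed to between 918008 and 969385 TPM, and 10894 to 12825 genes reached 1 TPM. Tcf21 RNA was present in KO libraries at lower medians than in WT, 25.1 TPM in KO and 47.6 TPM in WT at 3W, 12.3 TPM in KO and 16.8 TPM in WT after 1W HFD, and 3.66 TPM in KO and 10.1 TPM in WT after 12W HFD. The KO and WT libraries overlapped at 3W and after 1W HFD, but not after 12W HFD. The gap there was narrow, with KO at 1.64 and 5.67 TPM and the lowest WT library at 5.86 TPM. WT 6M read 2.24 and 5.54 TPM, within the range of the KO 12W HFD libraries. Marker genes of the sorted lineage (Pdgfra, Col1a1 and 8 others) summed to between 23536 and 39222 TPM in every library. Markers of macrophages moved with stage, and their 16 genes summed to 133 to 702 TPM in KO 3W, 1334 and 1366 TPM in KO 1W HFD and 3366 and 7045 TPM in KO 12W HFD, and to 70.0 to 252 TPM in WT 3W, 631 to 945 TPM in WT 1W HFD, 4148 to 11710.3 TPM in WT 12W HFD and 3281 and 7828 TPM in WT 6M. Plasma and B cell markers, 11 tested genes, reached 51400 TPM in WT 6M replicate 1 and 875 TPM in replicate 2. They summed to 40.7 to 92.8 TPM in the 7 WT 3W libraries, although Pou2af1 among them was at 0 in all 7. Erythroid markers summed to 577 to 6731 TPM in KO 3W and 3477 and 15862 TPM in KO 12W HFD. In WT they summed to 1116 to 9489 TPM at 3W, 3614 to 41700 TPM after 12W HFD and 9135 and 39123 TPM at 6M. In bulk RNA, fewer cells of a type and less RNA per cell cannot be told apart.

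The ER stress genes made up between 0.63% and 1.16% of the summed TPM of a library. Hspa5, which encodes BiP, the main Hsp70 chaperone of the ER and the partner that holds the sensors inactive, was the most abundant member, at a mean of 2138 TPM (TPM is scaled for transcript length). It alone gave 14.8% to 34.2% of the members' summed TPM, and its mean lay at percentile 99.72 of the genes tested. Hspa5 (ENSMUSG00000026864, chromosome 2, 34771970 to 34777547) read 1719.5 and 2262 TPM in WT P12. At 3W it read 2017, 2918, 1922, 1243 and 2136 TPM in KO and 1229 at the lowest, 1690.4 at the median and 3665 at the highest TPM in WT. After 1W HFD it read 2038 and 1319 TPM in KO and 2096, 2177, 1783 and 2555 TPM in WT. The KO and WT libraries overlapped at 3W and after 1W HFD, and the 7 WT 3W libraries held both the lowest and the highest value of the series. After 12W HFD it read 2946 and 2564 TPM in KO and 2365, 2291, 2334, 2666 and 2269 TPM in WT, and at 6M 1469.7 and 1917 TPM in WT. The WT 12W HFD libraries lay above both WT 6M libraries.

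The members differed widely in level. Other abundant chaperones and isomerases were Pdia3, an isomerase that works with the lectin chaperones (mean 998 TPM over 29 libraries), Hsp90b1, the ER form of Hsp90 (616 TPM), and P4hb, which is both an isomerase and a subunit of collagen prolyl hydroxylase (545 TPM). The sensors were scarce by comparison, at means of 3.54 TPM for Ern1, 6.26 TPM for Atf6 and 13.6 TPM for Eif2ak3. Xbp1, the transcription factor gene that IRE1 acts on, stood at 574 TPM. The lowest members were Chac1, a glutathione-degrading enzyme induced by ATF4 (0.50 TPM, listed at 0 in 15 libraries), Derl3, the secretory-cell member of the derlin family (2.17 TPM), and Sesn2, a stress-induced inhibitor of growth signalling (3.05 TPM).

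Over the 8 groups the median member spanned 1.10 on the log2(TPM + 1) scale between its lowest and its highest group mean, against 1.15 for all genes tested. The median SD within groups was 0.41 for members and 0.51 for all genes. The widest spans belonged to Sdf2l1 (2.25), a cofactor of BiP, to Syvn1 (2.10), the ubiquitin ligase of ER-associated degradation, and to Atf4 (1.77). They were followed by Hyou1 (1.76), the large Hsp110-type chaperone, Asns (1.65), asparagine synthetase, and Derl3 (1.57). The narrowest were Xbp1 (0.38) and Dnajb11 (0.53), a J-domain helper of BiP. KO 12W HFD held the highest group mean for 15 of 32 members (46.9%), against 11.9% of all genes tested, and the lowest for 0 of 32, against 16.0% of all genes. Those 15 were Hspa5, Hsp90b1, Calr, Hyou1, Dnajb11, Dnajc3, Creld2, Manf, Pdia3, Pdia4, Edem1, Sel1l, Atf6, Xbp1 and Asns. Groups of 2 libraries, KO 12W HFD among them, give more extreme means than larger groups do.

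**Figure D1:**
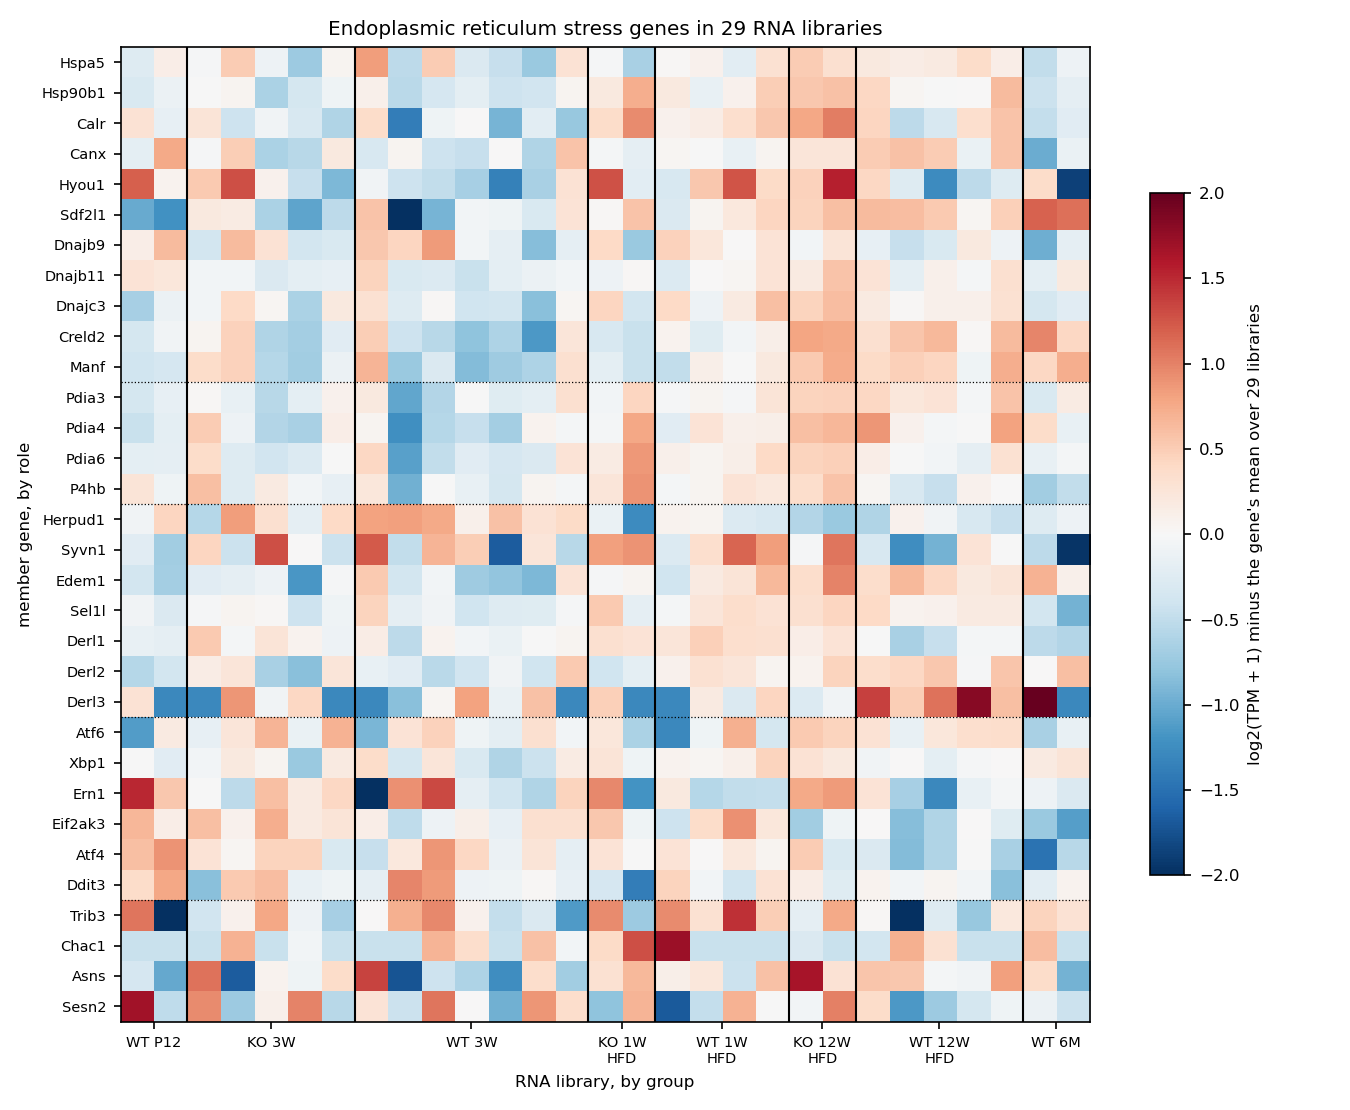
Level of each of the 32 members (rows, ordered by role with dotted lines between roles) in each of the 29 RNA libraries (columns, by group), as log2(TPM + 1) minus the gene's mean over the libraries. Most chaperone and isomerase rows are above their mean in both KO 12W HFD libraries, and 15 of 32 members have their highest group mean there.

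The start sites of these genes were open chromatin throughout. Promoter windows from 250 bases before to 50 bases after the start site were taken from RefSeq (GRCm38.p6, the assembly of mm10) and matched 28 of 32 members, without Manf, Atf6, Hyou1 and Derl1. All 28 held a deposited ATAC-seq peak in all 9 libraries, KO and WT, against 10040 of 16700 genes with a window (60.1%) and 9545 of the 11311 tested for expression (84.4%). The height of each peak was read as its percentile of fold enrichment, the authors' value, within its own library's list. It was at least 91.5 in every library for 24 members, and P4hb reached from 98.8 to 99.96. Chac1 lay lowest, at 49.3 to 77.2, followed by Asns (68.5 to 91.5), Derl3 (69.0 to 86.3) and Trib3, a pseudokinase induced by ATF4 (83.7 to 94.9). Each percentile is among all peaks of a list, wherever they lie, and peaks at the start sites of other genes were not ranked. High percentiles are therefore not shown to be particular to these genes.

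**Figure D2:**
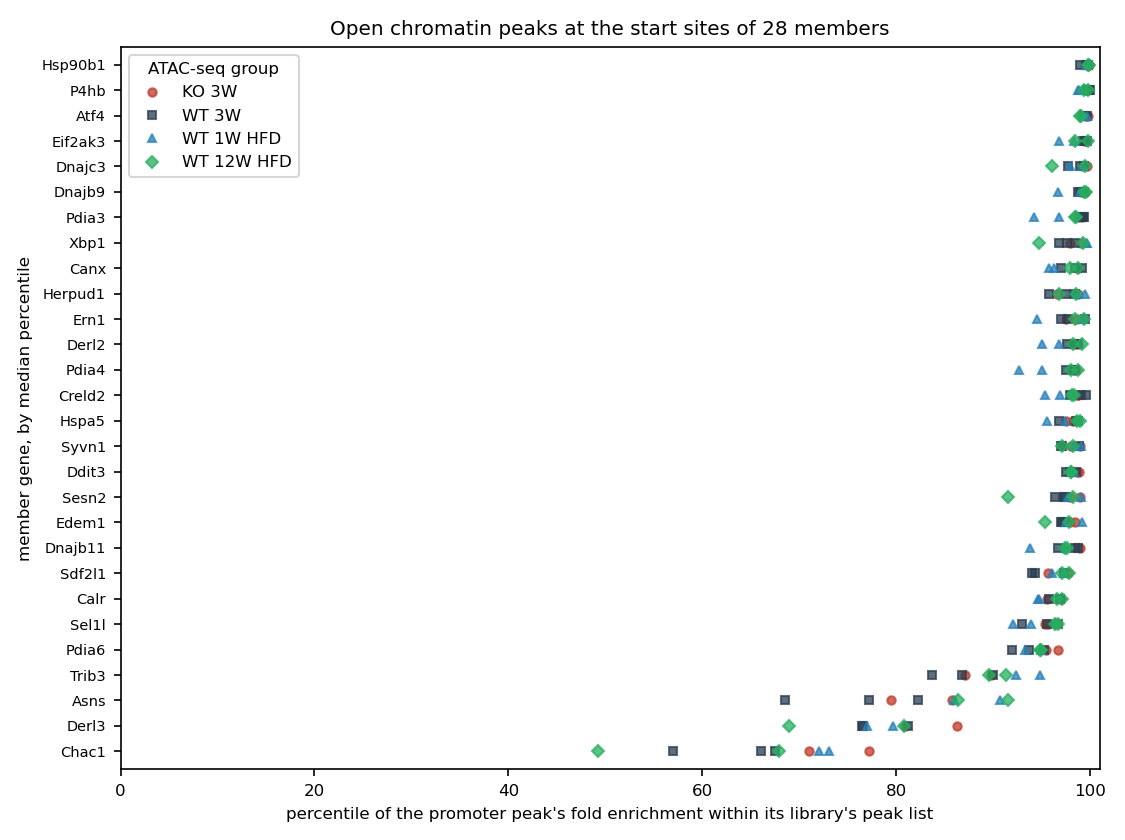
Percentile of the fold enrichment of the ATAC-seq peak at the start site, within the peak list of its library, for 28 members (rows) in 2 KO 3W, 3 WT 3W, 2 WT 1W HFD and 2 WT 12W HFD libraries (symbols). The symbols of 24 members crowd at or above 91.5 in every group, while Chac1 spreads from 49.3 to 77.2. Peaks at the start sites of other genes were not ranked for comparison.

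The windows were searched on both strands for the DNA elements known from this pathway. The ER stress element, CCAAT and CCACG with 9 bases of any kind between them, is bound by ATF6 with NF-Y and by XBP1. It was found in 9 of 28 members (32.1%) and in 28 of the 16700 genes (0.168%). The related ERSE-II, ATTGG and CCACG with 1 base of any kind between them, was found in 2 of 28 members (7.14%) and 10 genes (0.0599%). Both elements contain CCAAT and CCACG, which alone were in 24 (85.7%) and 23 (82.1%) of 28 members and in 42.0% and 41.3% of genes. The ATF4 element TGATGNAA was in 4 of 28 members (14.3%) and 3.96% of genes. The XBP1 element TGACGTGG was in 0 of 28 members and 0.862% of genes. The median GC content of the windows was 63.2% for members and 56.8% for all genes. A match is a description of the letters in this window and not a bound site. Elements and members were both taken from what is known of this pathway, so the higher share in members is not an independent result.

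The stretches that hold the ER stress element are shown because they are the sequence feature most frequent in this set relative to other genes. They are given 5′ to 3′ along the gene, with capitals for CCAAT and CCACG, or for ATTGG and CGTGG where the element lies on the other strand. Hspa5 is at chr2:34772015-34772053, plus strand, with the element starting 65 bases before the start site. Calr, a lectin chaperone that buffers calcium, is at chr8:84847065-84847103, minus strand, and its membrane-bound relative Canx is at chr11:50325790-50325828, minus strand. Creld2, a secreted ER stress protein, is at chr15:88819510-88819548, plus strand. Dnajc3, which restrains PERK, is at chr14:118937817-118937855, plus strand. Pdia6, an isomerase, is at chr12:17266481-17266519, plus strand. Syvn1 is at chr19:6046522-6046560, plus strand, and Derl3 at chr10:75893232-75893270, plus strand. Hsp90b1, at chr10:86705523-86705666, minus strand, holds 2 elements on opposite strands, which start 212 and 107 bases before the start site.
Hspa5: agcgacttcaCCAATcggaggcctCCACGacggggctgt
Calr: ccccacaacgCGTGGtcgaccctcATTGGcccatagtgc
Canx: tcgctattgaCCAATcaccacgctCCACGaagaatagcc
Creld2: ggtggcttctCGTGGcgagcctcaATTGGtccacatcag
Dnajc3: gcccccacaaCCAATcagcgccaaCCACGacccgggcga
Pdia6: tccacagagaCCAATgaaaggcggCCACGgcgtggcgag
Syvn1: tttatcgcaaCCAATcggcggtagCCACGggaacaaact
Derl3: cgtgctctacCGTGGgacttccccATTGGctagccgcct
Hsp90b1: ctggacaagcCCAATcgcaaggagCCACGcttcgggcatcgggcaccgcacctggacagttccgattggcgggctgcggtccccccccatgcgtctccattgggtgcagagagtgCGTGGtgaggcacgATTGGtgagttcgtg

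The other 5 genes with an element, which hold 6 elements in all, are shown in the same way, with capitals for the fixed letters of ERSE-II or of the ATF4 element. Dnajb11 (chr16:22857842-22857872, plus strand) holds ERSE-II within the transcribed part of its window. Herpud1 (chr8:94386307-94386397, plus strand), a membrane scaffold of ER-associated degradation, holds the ATF4 element on the other strand 112 bases before the start and ERSE-II 52 bases before it, and is the only one of the 28 windows with both. The ATF4 element lies in Asns (chr6:7693215-7693242, minus strand) on the strand of the gene, and in Chac1 (chr2:119351039-119351066, plus strand) and Trib3 (chr2:152344029-152344056, minus strand) on the other strand.
Dnajb11: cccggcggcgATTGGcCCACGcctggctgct
Herpud1: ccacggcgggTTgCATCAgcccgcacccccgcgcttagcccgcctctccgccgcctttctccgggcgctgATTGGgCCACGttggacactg
Asns: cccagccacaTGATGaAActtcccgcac
Chac1: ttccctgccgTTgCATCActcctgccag
Trib3: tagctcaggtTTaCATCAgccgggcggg

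The first comparison asked whether KO cells differ from WT cells in these genes. Differences are given as differences of mean log2(TPM + 1), KO minus WT or later minus earlier stage, with standard errors after ±. No member passed the threshold at any stage (limma adjusted p under 0.05 over all 15659 genes tested), where 0.0%, 0.0255% and 0.00639% of all genes passed at 3W, 1W HFD and 12W HFD. At 3W the members' median difference was 0.06, against 0.01 for all genes, with 22 of 32 positive. The count of members with unadjusted p under 0.05 was 0, among 546 such genes. The titles number KO and WT libraries at 3W as pairs without saying what a pair shares, and with the pair as a block 0 members and 0 of all genes passed. No member's 5 KO and 7 WT libraries were fully apart, as they were for 0.0766% of genes. Herpud1 was nearest to a difference, at 209, 551, 386, 274 and 411 TPM in KO and 333 at the lowest, 464 at the median and 549 at the highest TPM in WT (-0.37 ± 0.21, limma adjusted p = 1). The KO libraries ranged from below all WT libraries to above them all. In the lowest, KO 3W replicate 1, immediate early and dissociation genes summed to 7060 TPM, against 22945 to 32017 TPM in the other KO 3W libraries. Its cell cycle markers summed to 1003 TPM, against 156 to 383 TPM. The part of that library in the KO 3W comparisons was not tested.

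After 1W HFD the median difference between KO and WT was -0.04, with 15 of 32 members positive. The 4 isomerases were all positive (median 0.33), while 4 of 11 chaperones were (median -0.09). Ddit3 alone had an unadjusted p under 0.05, among 540 such genes, at 57.2 and 27.3 TPM in KO and 99.7, 69.7, 54.9 and 88.9 TPM in WT (-0.93 ± 0.38, limma adjusted p = 1). Its ranges overlapped. Creld2 and Derl2, a derlin that passes proteins out of the ER, were lower in both KO libraries than in all 4 WT libraries, as were 5.41% of genes. KO 1W HFD replicate 2 carried the highest summed cell cycle markers of its group (782 TPM, against 214 TPM in replicate 1), and read 979.9 TPM for both Pdia6 and P4hb. The part of that library in these differences was not tested.

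After 12W HFD the members lay on the higher side in KO without any single call. The median difference was 0.29, against -0.01 for all genes, with 26 of 32 members positive. Of the roles, 10 of 11 chaperones were positive (median 0.29), as were 4 of 4 isomerases (0.35), 5 of 6 sensors and transcription factors (0.29), 4 of 7 degradation factors (0.19) and 3 of 4 ATF4 and CHOP targets (0.74). The median stayed between 0.27 and 0.34 under every alternative run, and 0 members were called in each of them. The summed TPM of the members was 10836 and 10891 in KO, against 8596 to 10012 in WT. Other lists also leaned to one side in this comparison with 0 genes called. Immediate early and dissociation genes were positive in 15 of 18 (median 0.46), heat shock genes acting outside the ER in 11 of 16 (0.25) and endothelial markers in 8 of 10 (0.76), against 2 of 16 macrophage markers (-0.72). Their part in the members' values was not tested.

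Calr read 629.8 and 747 TPM in KO 12W HFD and 495, 255, 295, 462 and 546 TPM in WT 12W HFD (0.80 ± 0.34, unadjusted p = 0.0277, limma adjusted p = 1). P4hb read 673 and 786 TPM in KO and 539, 421, 384, 556 and 529 TPM in WT (0.60 ± 0.26, unadjusted p = 0.0278, limma adjusted p = 1). Both KO libraries lay above all 5 WT libraries for both genes. Hyou1 read 4.27 and 10.2 TPM in KO and 4.07, 2.18, 0.59, 1.67 and 2.20 TPM in WT (1.39 ± 0.62, unadjusted p = 0.0335, limma adjusted p = 1). Derl1, another derlin, read 109 and 119.7 TPM in KO and 98.3, 63.1, 71.9, 96.9 and 96.3 TPM in WT (0.44 ± 0.20, unadjusted p = 0.0373, limma adjusted p = 1). These ranges, too, did not overlap, although the lower KO library stood close to the highest WT library for Hyou1. These 4 were the members with unadjusted p under 0.05, among 570 such genes.

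In all, 10 of 32 members were higher in both KO 12W HFD libraries than in all 5 WT 12W HFD libraries (Atf6, Calr, Creld2, Derl1, Dnajc3, Ern1, Hyou1, P4hb, Pdia6 and Xbp1), against 4.73% of all genes. Derl3 was lower in both, against 5.22% of genes. Ern1 read 5.66 and 6.11 TPM in KO and 3.79, 1.51, 0.62, 2.58 and 2.84 TPM in WT (1.17 ± 0.63, limma adjusted p = 1). Xbp1 read 691 and 649 TPM in KO and 536, 566, 491, 557 and 569 TPM in WT (0.30 ± 0.24, limma adjusted p = 1). The KO libraries of both genes were close to each other and above the WT range. Derl3 read 1.02 and 1.34 TPM in KO and 5.31, 2.43, 4.17, 7.60 and 2.72 TPM in WT, and plasma and B cell markers summed to 433 and 3651 TPM in KO and 2098 to 13348 TPM in WT. Their part in the Derl3 values was not tested.

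The change of the KO to WT difference between stages was tested as an interaction, and no member passed it. From 3W to 12W HFD the members' median interaction was 0.23 with 25 of 32 positive, and 0.0% of all genes passed. From 3W to 1W HFD 0.00639% of genes passed, and from 1W to 12W HFD 0.0128%. The KO to WT differences after 12W HFD are thus not shown to differ from those at the earlier stages.

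**Figure D3:**
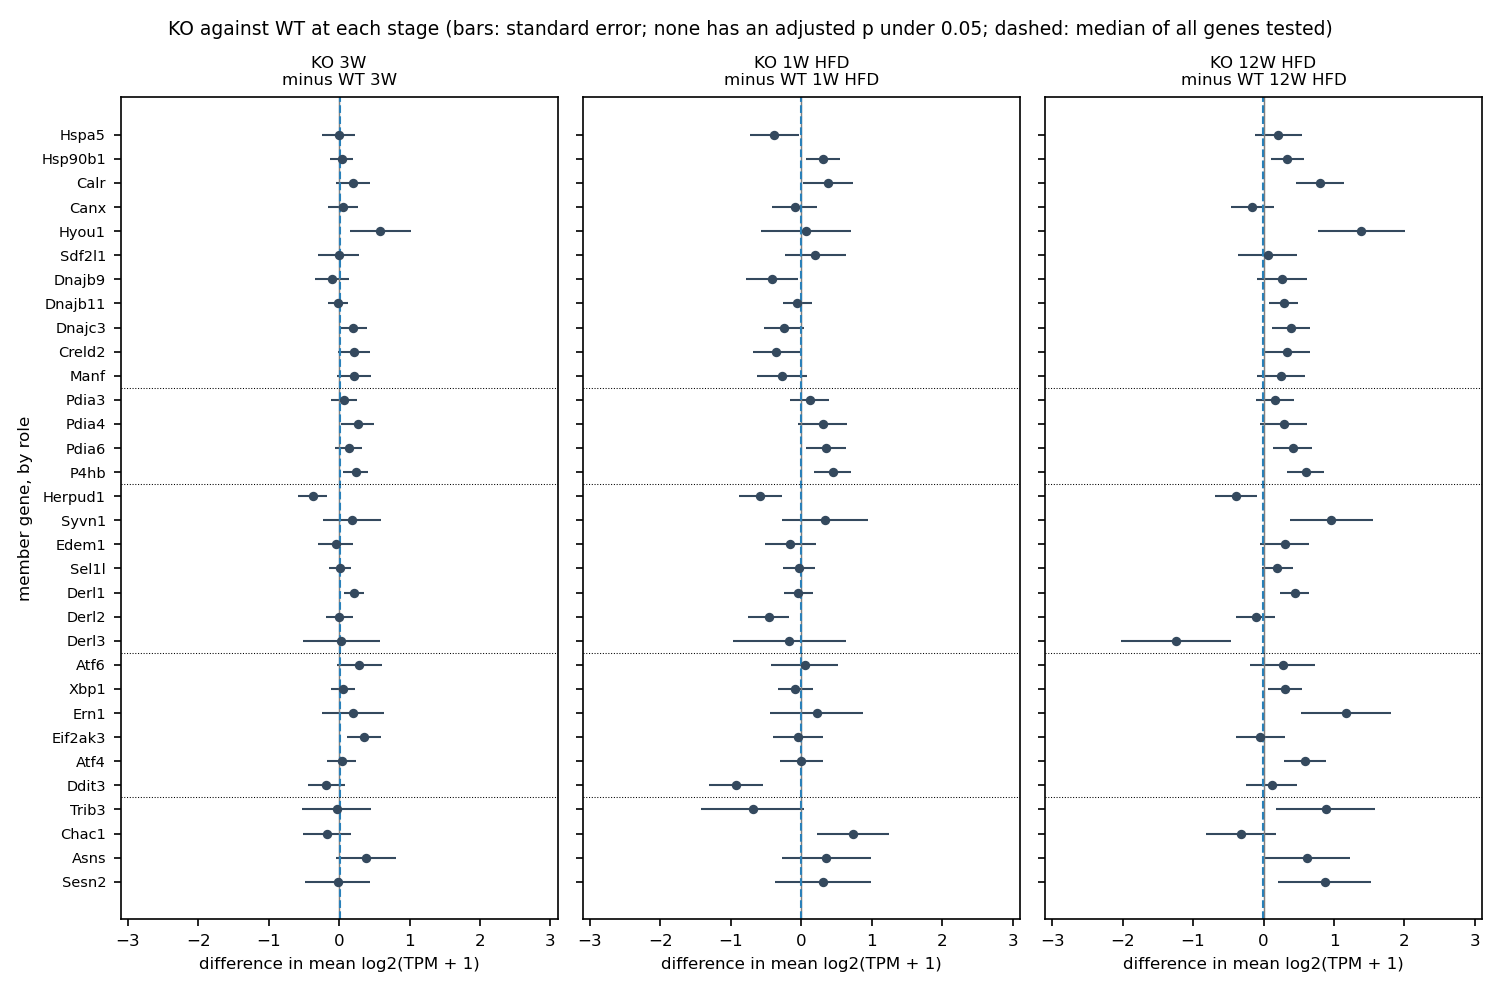
Difference in mean log2(TPM + 1), KO minus WT, for each member (rows, by role) at 3W, 1W HFD and 12W HFD; bars are standard errors of limma and the dashed line is the median of all genes tested. No member has an adjusted p under 0.05, and 26 of 32 points lie right of 0 after 12W HFD, against 22 at 3W and 15 after 1W HFD.

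The next comparisons asked how these genes differ with age in WT cells on regular diet. Between P12 and 3W no member passed, where 1.63% of genes did. The median difference was 0.00, against -0.04 for all genes, 16 of 32 were positive, and no member's libraries were fully apart, as they were for 8.0% of genes. Atf4 was nearest, at 99.2 at the lowest, 159.7 at the median and 255 at the highest TPM in WT 3W and 209 and 258 TPM in WT P12 (-0.61 ± 0.29, limma adjusted p = 0.331), with ranges that overlapped. All 7 degradation factors were positive (median 0.23), against 4 of 11 chaperones (median -0.18).

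Between 3W and 6M 3 of 32 members passed (9.38%), against 10.8% of all genes. Sdf2l1 and Creld2 rose, in a background of 4.0% of genes higher, and Atf4 fell, in a background of 6.85% lower. All genes tested had a median of -0.24 in this comparison (-0.03 with median-ratio scaling), and the members' median was -0.07, so changes are read relative to that shift. Sdf2l1 (ENSMUSG00000022769, chromosome 16, 17130138 to 17132383) read 206 and 194 TPM in WT 6M and 21.8 at the lowest, 84.8 at the median and 135 at the highest TPM in WT 3W (1.503 ± 0.40, limma adjusted p = 0.0149). Both 6M libraries were higher than any other library of the series. Creld2 (ENSMUSG00000023272, chromosome 15, 88819646 to 88826683) read 250.5 and 169.9 TPM in WT 6M and 56.8 at the lowest, 85.7 at the median and 178 at the highest TPM in WT 3W (1.10 ± 0.31, limma adjusted p = 0.0207), and the highest 3W library lay above the lower 6M library. Atf4 (ENSMUSG00000042406, chromosome 15, 80255184 to 80257541) read 48.7 and 92.7 TPM in WT 6M and 99.2 at the lowest, 159.7 at the median and 255 at the highest TPM in WT 3W (-1.16 ± 0.29, limma adjusted p = 0.00876). Both 6M libraries were below all 3W libraries. With median-ratio scaling the difference of Atf4 was -0.85 and not called (adjusted p = 0.0647), and 5 members were called higher and 0 lower (15.6%, against 9.99% of all genes).

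Sdf2l1 was the only member higher in both 6M libraries than in all 7 WT 3W libraries (5.43% of genes were), and Atf4, Eif2ak3 and Herpud1 were lower in both (11.9% of genes were). Eif2ak3 read 7.23 and 5.45 TPM in WT 6M and 8.66 at the lowest, 14.0 at the median and 16.2 at the highest TPM in WT 3W (-0.94 ± 0.33, limma adjusted p = 0.0657). Syvn1 read 8.55 and 2.56 TPM in WT 6M and 3.36 at the lowest, 15.3 at the median and 31.3 at the highest TPM in WT 3W (-1.23 ± 0.57, limma adjusted p = 0.17), with overlap. Of 11 chaperones 5 were positive (median -0.06), but 8 with median-ratio scaling (median 0.26) and 7 with quantile scaling (0.08), so the direction of the chaperones as a group depends on the scaling. All 3 calls were lost without WT 6M replicate 1, and that of Sdf2l1 also without replicate 2 (adjusted p up to 0.55 over all alternatives). Replicate 1 is the library in which plasma and B cell markers summed to 51400 TPM. In replicate 2 erythroid markers summed to 39123 TPM, against 9135 TPM in replicate 1, and the part of erythroid RNA was not tested. Sdf2l1 read 206 TPM in replicate 1 and 194 TPM in replicate 2, whereas Creld2 read 250.5 and 169.95 TPM and Atf4 48.7 and 92.7 TPM in the same order. Derl3, which was not called, read 12.7 TPM in replicate 1 and 0 in the other. Of the 11 tested plasma and B cell markers 7 rose and 1 fell between 3W and 6M, and of 16 macrophage markers 14 rose. Their part in the members' values was not tested.

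High-fat diet was set against 3W in both genotypes. In each of these comparisons age, diet and perhaps the age at tamoxifen dosing change together and cannot be told apart. The comparisons of WT 1W HFD, 12W HFD and 6M with WT 3W share the same 7 WT 3W libraries, so they are not independent of each other.

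After 1W HFD no member passed in WT cells, against 8.03% of all genes. Still, 26 of 32 members were positive (median 0.30, against 0.02 for all genes), among them 11 of 11 chaperones (median 0.37), 4 of 4 isomerases (0.36) and 6 of 7 degradation factors (0.35). Of the 6 sensors and transcription factors 2 were positive (median -0.07). Calr read 388, 405, 464 and 535 TPM in WT 1W HFD and 141 at the lowest, 318 at the median and 474 at the highest TPM in WT 3W (0.70 ± 0.26, limma adjusted p = 0.0951), and the highest 3W library overlapped with the 1W HFD range. Derl1 read 118, 139, 126 and 124 TPM in WT 1W HFD and 68.8 at the lowest, 98.9 at the median and 110.4 at the highest TPM in WT 3W (0.41 ± 0.15, limma adjusted p = 0.0988). Herpud1 read 326, 322, 255 and 248 TPM in WT 1W HFD and 333 at the lowest, 464 at the median and 549 at the highest TPM in WT 3W (-0.65 ± 0.22, limma adjusted p = 0.07). Derl1 lay above and Herpud1 below all 3W libraries, and 3.71% and 2.31% of all genes did so in the same directions. Between the same groups 11 of 16 macrophage markers and 6 of 10 endothelial markers (median 1.66) rose, and their part in the members' values was not tested.

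After 12W HFD 5 of 32 members passed in WT cells (15.6%), against 14.2% of all genes. Creld2, Manf and Pdia4 rose (7.94% of genes were called higher), and Herpud1 and Atf4 fell (6.23% lower). The median was 0.25, against -0.04 for all genes, and 21 of 32 were positive. By role, 10 of 11 chaperones (median 0.46) and 4 of 4 isomerases (0.40) were positive, but only 2 of 6 sensors and transcription factors (-0.33) and 1 of 4 ATF4 and CHOP targets (-0.32). These signs were the same under the 3 other scalings run. The count depended on the setting more for the members than for all genes. With median-ratio scaling 9 members were called higher and 1 lower (31.2%, against 14.4% of all genes), and with quantile scaling 6 higher and 2 lower (25.0%, against 15.2%). It was 9 without WT 12W HFD replicate 4 or WT 3W replicate 1 and 11 without WT 3W replicate 7, but 2 without WT 12W HFD replicate 1 or 5 or WT 3W replicate 2, and 3 without WT 12W HFD replicate 2 or WT 3W replicate 3, 4, 5 or 6, while 11.3% to 15.2% of all genes were called in these fits.

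Creld2 read 159, 187, 199, 128 and 198 TPM in WT 12W HFD and 56.8 at the lowest, 85.7 at the median and 178 at the highest TPM in WT 3W (0.84 ± 0.23, limma adjusted p = 0.0103). The 12W HFD libraries were above the median of 3W but overlapped with its 2 highest libraries, and the call was lost with replicate numbers as a block (adjusted p = 0.0677). Manf (ENSMUSG00000032575, chromosome 9, 106838312 to 106891979), a secreted ER protein that binds BiP, read 560.2, 601, 580.2, 406 and 709.97 TPM in WT 12W HFD and 235 at the lowest, 281 at the median and 690.1 at the highest TPM in WT 3W (0.70 ± 0.24, limma adjusted p = 0.0458). Pdia4 (ENSMUSG00000025823, chromosome 6, 47796141 to 47813430), an isomerase, read 230.3, 133, 121, 125 and 218 TPM in WT 12W HFD and 52.7 at the lowest, 90.5 at the median and 131 at the highest TPM in WT 3W (0.76 ± 0.23, limma adjusted p = 0.0263). The ranges of both genes overlapped.

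Herpud1 (ENSMUSG00000031770, chromosome 8, 94386438 to 94395377) read 205, 329, 294, 249 and 224 TPM in WT 12W HFD and 333 at the lowest, 464 at the median and 549 at the highest TPM in WT 3W (-0.81 ± 0.21, limma adjusted p = 0.00726). All 5 libraries lay below all 7 of 3W, which 3.05% of genes did in this direction, and it was the only member without overlap. The call held in all 23 alternatives. Atf4 read 112, 74.7, 89.8, 137 and 86.8 TPM in WT 12W HFD and 99.2 at the lowest, 159.7 at the median and 255 at the highest TPM in WT 3W (-0.63 ± 0.21, limma adjusted p = 0.042), with overlap. The calls of Atf4 and Manf were each lost in 13 of 23 alternatives. For Atf4 these included leaving out any 1 of WT 12W HFD replicates 1, 2, 3 and 5 or WT 3W replicates 2, 3, 4 and 6, and for Manf any 1 of WT 12W HFD replicates 1, 2, 3 and 5 or WT 3W replicates 2 to 6. Pdia4 was lost in 5, without WT 12W HFD replicate 1 or 5 or WT 3W replicate 2 or 5 among them.

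Further members did not pass, some of them near the threshold. Derl2 (limma adjusted p = 0.059), Pdia3 (0.067), Edem1 (0.0698) and Canx (0.0778) were higher on average in WT 12W HFD than in WT 3W. Among alternatives, Hsp90b1 was called in 8, Derl2 in 6, Pdia3, Edem1 and Canx in 5 each, Sdf2l1 in 4 and Derl3 in 1. Hsp90b1 read 795, 615, 595, 602 and 929.6 TPM in WT 12W HFD and 410.0 at the lowest, 475 at the median and 642 at the highest TPM in WT 3W (0.46 ± 0.16, limma adjusted p = 0.0523). Sdf2l1 averaged 126 ± 19.6 TPM in WT 12W HFD (SD, n = 5) and 79.4 ± 37.5 TPM in WT 3W (SD, n = 7; 0.82 ± 0.29, limma adjusted p = 0.0594). Asns averaged 31.4 ± 8.52 TPM in WT 12W HFD and 22.1 ± 19.2 TPM in WT 3W (0.79 ± 0.43, limma adjusted p = 0.255). Their ranges overlapped. Derl3 read 5.31, 2.43, 4.17, 7.60 and 2.72 TPM in WT 12W HFD and 0 at the lowest, 1.23 at the median and 3.27 at the highest TPM in WT 3W (1.37 ± 0.54, limma adjusted p = 0.0947), while 7 of 11 plasma and B cell markers and all 16 macrophage markers rose between the same groups. The part of these cells in the members' values was not tested.

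**Figure D4:**
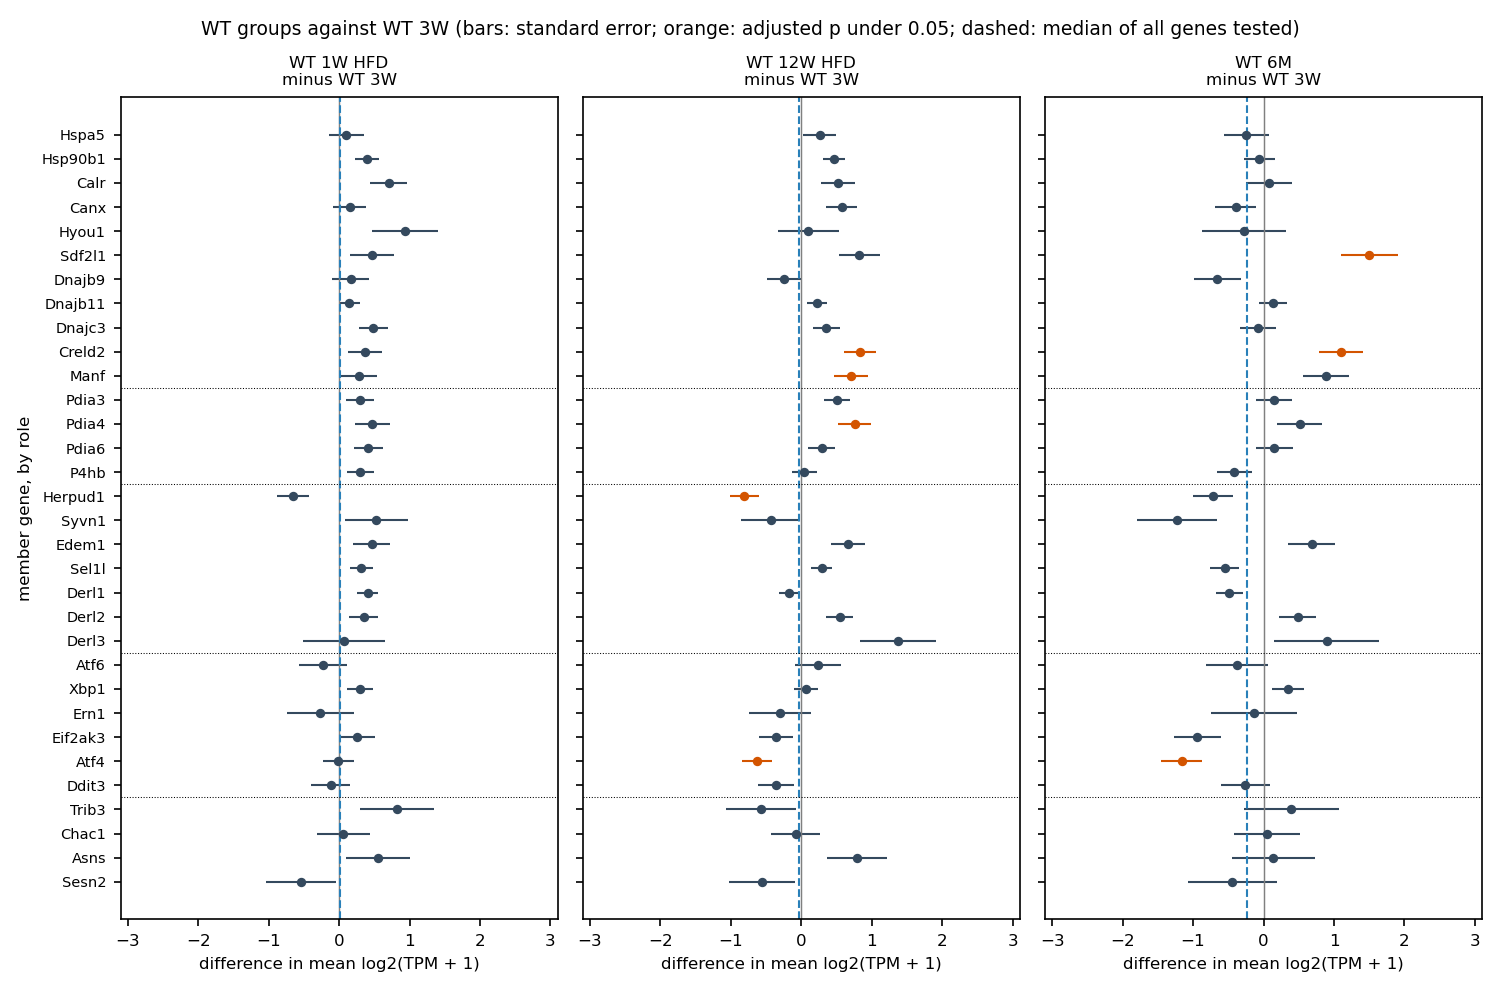
Difference in mean log2(TPM + 1) of WT 1W HFD, WT 12W HFD and WT 6M from WT 3W for each member (rows, by role); bars are standard errors of limma, orange points have an adjusted p under 0.05 and the dashed line is the median of all genes tested. Chaperones and isomerases lie mostly right of 0 in both diet panels (11 of 11 and 4 of 4 after 1W HFD, 10 of 11 and 4 of 4 after 12W HFD), and orange points number 0, 5 and 3.

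Between 1 and 12 weeks of diet 1 of 32 members passed in WT cells (3.12%), against 5.93% of all genes. Derl1 (ENSMUSG00000022365, chromosome 15, 57869502 to 57892448) fell, in a background of 2.39% of genes lower. It read 98.3, 63.1, 71.9, 96.9 and 96.3 TPM in WT 12W HFD and 118, 139, 126 and 124 TPM in WT 1W HFD (-0.58 ± 0.16, limma adjusted p = 0.0272), with all 5 libraries below all 4. The call was lost in 9 of 20 alternatives, among them without WT 12W HFD replicate 2 or 3 or WT 1W HFD replicate 2, 3 or 4. Atf4, Trib3 and Xbp1 were also below without overlap (5.58% of genes were), and Derl3 above (4.97%). Trib3 read 4.47, 0.20, 3.5, 2.20 and 5.21 TPM in WT 12W HFD and 9.42, 5.65, 13.8 and 6.58 TPM in WT 1W HFD (-1.39 ± 0.56, limma adjusted p = 0.166). The members' median was -0.03, against -0.05 for all genes. Between the same groups 14 of 16 macrophage, 6 of 11 plasma and B cell and 6 of 8 lymphocyte markers rose, and 1 of 10 endothelial markers was positive (median -1.44). Their part in the members' values was not tested.

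WT 12W HFD and WT 6M differ in age and diet, which cannot be told apart here. No member passed between them, against 0.881% of all genes, and the members' median of 0.33 stood beside 0.22 for all genes (0.05 with median-ratio scaling). Sel1l, the partner of Syvn1 in the degradation complex, was nearest at 99.1, 78.5, 78.8, 84.9 and 84.7 TPM in WT 12W HFD and 57.6 and 38.1 TPM in WT 6M (0.84 ± 0.22, limma adjusted p = 0.0585). Canx read 499.6, 531, 500.2, 323 and 522 TPM in WT 12W HFD and 177 and 322 TPM in WT 6M (0.97 ± 0.31, limma adjusted p = 0.122). Both lay above 6M without overlap, as did Dnajc3, Hsp90b1, Hspa5 and P4hb, making 6 of 32 members against 16.5% of genes. Sdf2l1, Trib3 and Xbp1 lay below without overlap, against 4.24% of genes.

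In KO cells the chaperones lay on the higher side after 12W HFD against 3W, where 1 of 32 members passed (3.12%), against 5.15% of all genes. Hsp90b1 (ENSMUSG00000020048, chromosome 10, 86690209 to 86705509) rose, in a background of 3.19% of genes higher. It read 865 and 894 TPM in KO 12W HFD and 593, 619, 383, 468 and 562 TPM in KO 3W (0.76 ± 0.23, limma adjusted p = 0.0479). Both 12W HFD libraries were above all 5 of 3W. The call was lost in 9 of 18 alternatives, among them without either KO 12W HFD replicate or without KO 3W replicate 3, 4 or 5. The members' median was 0.45, against -0.05 for all genes, with 27 of 32 positive, 11 of 11 chaperones (median 0.74) and 4 of 4 isomerases (0.59) among them.

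Calr read 629.8 and 747 TPM in KO 12W HFD and 441, 274, 348, 293 and 241 TPM in KO 3W (1.13 ± 0.34, limma adjusted p = 0.0529). Creld2 read 220.0 and 215 TPM in KO 12W HFD and 132, 176, 83.7, 78.8 and 109 TPM in KO 3W (0.96 ± 0.32, limma adjusted p = 0.0863). Edem1, a lectin that hands misfolded glycoproteins to degradation, read 39.7 and 62.0 TPM in KO 12W HFD and 26.3, 27.1, 28.8, 13.1 and 30.1 TPM in KO 3W (1.01 ± 0.35, limma adjusted p = 0.102). In all 3 the 12W HFD libraries were clear of the 3W range. In all, 14 of 32 members lay above without overlap, against 9.27% of genes, and 2 below (Eif2ak3 and Herpud1), against 9.46%. Herpud1 read 207 and 185 TPM in KO 12W HFD and 209, 551, 386, 274 and 411 TPM in KO 3W (-0.82 ± 0.30, limma adjusted p = 0.125). Both 12W HFD libraries lay below the lowest 3W library, the higher of them by little. Between these groups 14 of 16 macrophage markers and 2 of 11 plasma and B cell markers rose, and their part was not tested.

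After 1W HFD in KO cells no member passed against KO 3W, where 0.862% of genes did, with a median of 0.13 against 0.03 for all genes and 18 of 32 positive. Calr, Edem1 and Hsp90b1 lay above without overlap, against 8.53% of genes. Hsp90b1 read 685 and 989 TPM in KO 1W HFD and 593, 619, 383, 468 and 562 TPM in KO 3W (0.67 ± 0.23, limma adjusted p = 0.187). Between 12W and 1W HFD in KO cells no member passed either, where 0.76% of genes did, with a median of 0.27 against -0.06 and 25 of 32 positive. Creld2 read 220.0 and 215 TPM in KO 12W HFD and 101.4 and 93.3 TPM in KO 1W HFD (1.15 ± 0.38, limma adjusted p = 0.232). Without overlap 11 members were above (15.0% of genes) and Chac1 and Derl1 below (22.5%). These last 2 groups hold 2 libraries each.

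**Figure D5:**
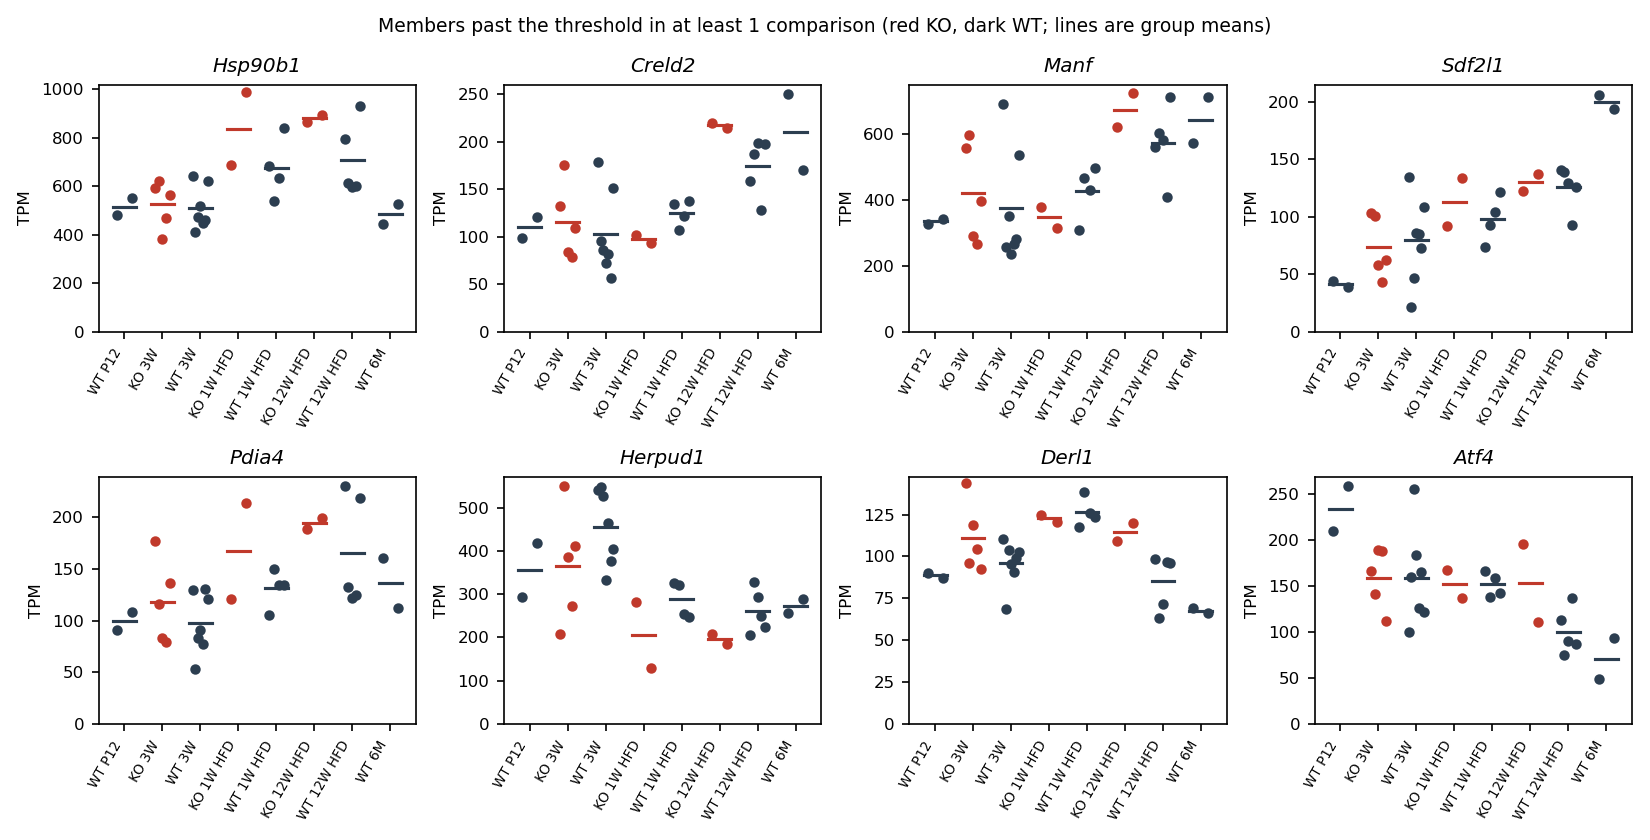
TPM of the 8 members that passed the threshold in at least 1 comparison, in each RNA library (points; red KO, dark WT) with group means (lines), on axes that start at 0. Herpud1 is higher in all 7 WT 3W libraries (333 to 549 TPM) than in the WT 12W HFD libraries (205 to 329 TPM), and both WT 6M libraries top the Sdf2l1 panel at 206 and 194 TPM.

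Members that scarcely varied, or varied without a call, complete the set. Pdia3 ranged from 471 to 1439 TPM over the 29 libraries and Dnajb9, a J-domain protein that keeps IRE1 in check, from 75.3 to 269 TPM. Dnajc3 ranged from 46.5 to 128 TPM, Sel1l from 38.1 to 107 TPM and Derl2 from 80.5 to 220.2 TPM. Asns, Hyou1, Syvn1 and Derl3 were the members with wide group spans but no call. Asns read 51.2, 6.73, 24.7, 22.2 and 30.6 TPM in KO 3W, 29.3 and 37.3 TPM in KO 1W HFD and 75.8 and 29.1 TPM in KO 12W HFD. In WT cells it read 18.5 and 11.04 TPM at P12, 6.39 at the lowest, 14.9 at the median and 62.0 at the highest TPM at 3W, 25.5, 27.6, 17.3 and 35.8 TPM after 1W HFD, 34.9, 34.6, 23.0, 22.4 and 42.2 TPM after 12W HFD and 30.8 and 11.7 TPM at 6M. The WT 3W range overlapped with that of every other group. Syvn1 read 17.6, 9.29, 32.7, 12.8 and 9.27 TPM in KO 3W, 23.3 and 24.6 TPM in KO 1W HFD and 12.5 and 27.9 TPM in KO 12W HFD. In WT cells it read 10.8 and 7.55 TPM at P12, 10.5, 16.4, 30.1 and 23.6 TPM after 1W HFD and 10.1, 4.86, 6.19, 15.7 and 12.7 TPM after 12W HFD. Every KO 1W HFD value lay within the range of the WT 1W HFD values. Derl3 read 0, 3.53, 1.32, 2.26 and 0 TPM in KO 3W and 2.39 and 0 TPM in KO 1W HFD, and in WT cells 2.00 and 0 TPM at P12 and 0, 1.78, 1.01 and 2.3 TPM after 1W HFD. Hyou1 read 4.51, 8.38, 3.06, 1.77 and 1.05 TPM in KO 3W and 8.20 and 2.3 TPM in KO 1W HFD. In WT cells Hyou1 read 7.75 and 3.00 TPM at P12, 0.50 at the lowest, 1.71 at the median and 3.67 at the highest TPM at 3W, 2.05, 4.55, 8.09 and 3.96 TPM after 1W HFD and 3.91 and 0.05 TPM at 6M. Both genes were among the 4 members of lowest mean TPM.

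Other genes of the pathway were counted from lists taken from textbook knowledge. Of 37 other tested ATF4 and integrated stress response targets, 5 fell and 0 rose between WT 3W and 12W HFD (13.5%, where 14.2% of all genes were called and 6.23% were called lower; median -0.29, against -0.04 for all genes). Stc2, a secreted glycoprotein, differed by -1.78 ± 0.32 (limma adjusted p = 0.000183), and Ppp1r15a, which restores translation after PERK has slowed it, by -1.28 ± 0.29 (adjusted p = 0.00266). Vegfa, the angiogenic growth factor, and Vldlr, a lipoprotein receptor, fell as well (-1.44 ± 0.38 and -1.21 ± 0.24). Between WT 3W and 6M 6 of the 37 fell and 0 rose (16.2%, where 10.8% of all genes were called and 6.85% were called lower; median -0.73, against -0.24), led by Slc38a2, a transporter of neutral amino acids (-1.89 ± 0.33, adjusted p = 0.000311). That count was 3 with median-ratio scaling, 5 with quantile scaling and 7 with columns rescaled to 1 total. Immediate early genes, which respond to cell isolation and share Atf3 with this list, lay on the lower side in both comparisons. After 12W HFD 3 of 18 were positive (median -0.58) and 2 were called, 1 in each direction, and at 6M 4 of 18 were positive (median -0.57) and 1 fell. Their part in the values of the ATF4 targets was not tested.

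Of 48 other folding and secretion genes 3 rose and 4 fell between WT 3W and 12W HFD (14.6%, against 14.2% of all genes; median 0.03). Sec11c, a subunit of the signal peptidase that trims new secretory proteins, rose most (1.33 ± 0.17, limma adjusted p = 8.87e-07), and Kdelr3, a receptor that returns ER proteins from the Golgi, fell most (-0.89 ± 0.21, adjusted p = 0.00281). Sec11c also rose between KO 3W and KO 12W HFD (1.08 ± 0.24, adjusted p = 0.00442) and between WT 3W and 6M (1.31 ± 0.23, adjusted p = 0.000343). Of 22 other degradation genes 0 passed after 12W HFD, 1 rose after 1W HFD (Edem2, 0.72 ± 0.18) and 2 fell at 6M (Ufd1, -0.63 ± 0.20, and Ngly1, -0.52 ± 0.17). In the same order, 14.2%, 8.03% and 10.8% of all genes were called, with 6.85% called lower at 6M. Of 16 other sensors and regulators Mbtps1, the protease that releases ATF6, fell after 12W HFD (-0.56 ± 0.19, adjusted p = 0.0498). Of 16 heat shock genes acting outside the ER, which answer to a different stress pathway, 3 fell after 12W HFD, led by Hspa1a (-1.59 ± 0.40, adjusted p = 0.00549). Beside the sensor and heat shock counts, 6.23% of all genes were called lower in that comparison. Between KO and WT 0 genes of these lists passed at any stage. After 12W HFD all 17 collagen folding enzymes, such as the lysyl and prolyl hydroxylases, were positive in KO against WT (median 0.39, against -0.01 for all genes), as were 16 of 17 at 3W (median 0.31) and 14 of 17 after 1W HFD (0.16), with 0 passing at each stage.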

How the data were processed

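RNA values are TPM per gene, deposited by the authors in a WT and a KO table. Tools listed in the submitters' processing notes, with no role stated, are MACS2, Bowtie2 2.3, FastQC, Trim Galore 0.6, RSEM and STAR 2.5.3a, and the build is mm10. Whether counting used strand is not stated there. Each deposited ATAC-seq peak, called per library, carries the authors' score, fold enrichment ratio, −log10 p and −log10 q, which served here for ranks and thresholds inside a single list.

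All 29 RNA libraries entered 1 fit of 8 group means on log2(TPM + 1) with limma 3.58.1 in R 4.3.3 (eBayes with trend, 21 residual degrees of freedom, two-sided, Benjamini-Hochberg over 15659 genes, threshold 0.05). A log2 difference is on this scale and makes changes of scarce genes look smaller. After ± stand standard errors for log2 differences and SDs for TPM. KO and WT tables hold TPM scaled within each library, and rescaling every column to 1 total was an alternative. The fit was checked on simulated data. No 2 libraries shared equal TPM in over 13.2% of tested genes. The labels do not say whether replicates are separate animals, so p-values measure the spread between libraries.

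The members, lists and tests were chosen with earlier results of these data known. Values in the compared libraries are given for called members and for the 6 with the widest span of group means; other members are named where they came nearest to a call or lay without overlap. At most 4 called genes per list are named. Alternatives were pseudocounts 0.1 and 0.5, other filters, scalings and weights, the compared groups alone, a replicate block, and each library left out in turn. A planned look at the C-terminal ends of the proteins was not run.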

Additional observations from a re-analysis of the deposited data

Results flagged for a closer look

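In groups of 4 to 7 libraries each member was checked for a library whose gap to its nearest neighbour was wide for the range of the group (Dixon's 95% criterion). It marked 13 of 128 combinations of gene and group, and chance marks about 1 in 20. WT 12W HFD replicate 4 was marked for 3 members, with Canx at 323 TPM (the others 499.6 to 531 TPM), Sdf2l1 at 92.4 TPM (126 to 141 TPM) and Hspa5 at 2666 TPM (2269 to 2365 TPM). In the same group Atf6 read 5.16 TPM in replicate 2 (7.0 to 7.75 TPM) and Ddit3 40.2 TPM in replicate 5 (70.0 to 76.4 TPM).

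WT 1W HFD replicate 4 was highest for Pdia6 at 709.8 TPM (559.6 to 581 TPM) and Xbp1 at 772 TPM (582 to 608 TPM), and replicate 1 for Ern1 at 3.55 TPM (1.67 to 1.84 TPM) and Chac1 at 3.42 TPM, which was listed at 0 in the other 3. KO 3W replicate 4 was lowest for Edem1 at 13.1 TPM (26.3 to 30.1 TPM) and Xbp1 at 337 TPM (541 to 649 TPM). In WT 3W, Derl1 read 68.8 TPM in replicate 2 (90.7 to 110.4 TPM) and Dnajb11 194 TPM in replicate 1 (105 to 137 TPM). No cause of these values was tested.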

How the results depend on the processing

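No called member changed direction in any alternative. Over the 10 calls, 152 of 213 values passed the threshold again and 61 did not, and the cause of the losses was not tested. The count of members called after 12W HFD against 3W in WT, 5 as reported, was 11 with array weights (34.4%, against 18.5% of all genes), 10 with median-ratio scaling (31.2% against 14.4%), 8 with quantile scaling (25.0% against 15.2%) and 3 (9.38%) with the compared groups alone, without the eBayes trend or without the filter (12.3%, 13.6% and 9.92% of all genes), and 2 to 11 with 1 library left out. At 6M against 3W, 3 as reported, it was 5 with median-ratio scaling (none of them Atf4, which was not called there), 0 with the compared groups alone and 0 to 5 with 1 library left out. After 1W HFD against 3W in WT, 0 as reported, it was 1 with array weights and with the compared groups alone, and 0 to 1 with 1 library left out. Between 12W and 1W HFD in WT, 1 as reported, it was 3 with array weights (9.38%, against 12.0%), 0 with the compared groups alone, without the trend and with median-ratio scaling, and 0 to 1 with 1 library left out. Against 6M, 12W HFD gave 0 as reported and 0 to 1 with 1 library left out. In KO cells, 12W HFD against 3W gave 1 as reported, 7 with array weights (21.9%, against 9.0% of all genes), 2 with rescaled columns, median-ratio scaling or the stricter filter, 0 with the compared groups alone, without the trend or with pseudocount 0.1, and 0 to 3 with 1 library left out. Where no share of all genes stands beside a count, here or with the replicate block below, the count is not read as a result about the members.

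At 3W the titles name pairs of KO and WT libraries, but not what a pair shares. Neither the pairs nor the replicate numbers entered the main fit. Same-pair correlations between KO and WT at 3W, taken after subtraction of group means, ran from -0.131 to 0.482. Of these, 5 of 6 were above 0.1, but libraries of WT 12W HFD and WT 6M that share only a replicate number reached 0.209. Libraries of different pairs were not compared, so likeness within a pair is not shown. The main fit at 3W leaves any such likeness out. Same-numbered KO and WT libraries correlated at 0.024 and 0.077 after 1W HFD and at -0.185 and -0.011 after 12W HFD. With the replicate block the count was 4 for 12W HFD against 3W in WT, where Creld2 (adjusted p = 0.0677), Atf4 and Manf lost their calls, and 0 at 6M against 3W, between 12W and 1W HFD in WT and for 12W HFD against 3W in KO. All other comparisons had 0 with and without the block.

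Groups of 2 libraries borrow their spread from the others, and TPM carries no depth, so low members such as Chac1 and Derl3 have no counting interval.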

Other observations

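Calr and Canx encode the lectin chaperones that hold glycoproteins in the same folding cycle, Calr in the ER lumen and Canx in its membrane, and their order of abundance differed between libraries. Canx had the higher TPM in 10 of 29 libraries, with a ratio of Canx to Calr from 0.44 to 2.60. Calr was the higher in both KO 12W HFD libraries (ratio 0.56 to 0.67), in both KO 1W HFD libraries (0.44 to 0.72) and in all 4 WT 1W HFD libraries (0.69 to 0.93). Canx was the higher in 3 of 5 WT 12W HFD libraries (0.70 to 2.08). At P12 and at 6M it was the higher in 1 of 2 libraries each. At 3W it was the higher in 2 of 5 KO libraries (0.65 to 1.82) and in 3 of 7 WT libraries (0.59 to 2.60). The order at 3W mostly went with the pair number. In KO and WT the ratio was 0.78 and 0.59 in pair 1, 1.82 and 2.60 in pair 2, 0.81 and 0.73 in pair 4, and 1.67 and 2.44 in pair 5. Pair 3 was mixed, at 0.65 in KO and 0.76 and 1.83 in WT. This ratio was looked at after the values were seen, and no difference between groups was tested for it.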
